A study of Mus musculus with 5375 samples.

Results

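The expression of 10 genes that carry or report Wnt/β-catenin signalling was followed in mouse lung endothelial cells (ECs) and in 4T1 tumour cells (TCs) seeded into the same lungs. The genes were a named list with no limit on their values, put together with earlier results of these data known, and comprised the signal carrier Ctnnb1, the nuclear partners Tcf7l2, Lef1 and Tcf7, the feedback genes Axin2, Nkd1, Notum, Znrf3 and Rnf43, and the receptor gene Lgr5. All 10 were found among the 35308 genes of the EC tables and the 35299 genes of the TC tables.

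Wnt ligands bind Frizzled receptors and Lrp co-receptors at the cell surface, which halts the destruction of β-catenin, the protein encoded by Ctnnb1. β-Catenin then enters the nucleus and switches on target genes together with DNA-binding factors of the Tcf/Lef family. Several targets act back on the pathway as inhibitors, so their transcripts are widely used as readouts, although the set of targets that responds differs between tissues.

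The mice were wild-type female BALB/c animals, 8 to 12 weeks old per the study's methods, and ECs of day 0 came from uninjected controls. All other animals received 4T1 cells through the tail vein. The 4T1 line is a breast cancer line of BALB/c origin, which here expressed GFP and carried CellTrace, a dye diluted at each division. On day 1.5 an antibody against H-2Kd given into the blood separated intravascular (stained) from extravascular (unstained) TCs, and on day 3.5 dye retention defined latent TCs and dye dilution proliferative TCs. Cultured 4T1 cells were the starting population. ECs were sorted as CD31+ cells without CD45, PDPN, LYVE1 or TER119. The gates enriched cell states and did not purify them. Each TC gate and each EC day had sequencing lanes of its own, so that neither gate nor day can be told apart from lane.

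Every cell was 1 SMART-Seq2 library without molecular identifiers, and the estimated counts of the cells kept by the authors were summed per animal. EC libraries came from 4 uninjected animals, 3 animals of day 1.5 and 3 of day 3.5, with 180 to 335 cells and 75.6 to 129.5 M reads each. There were 4 animals each for intravascular, extravascular and latent TCs, with 69 to 85 cells and 31.9 to 49.9 M reads each, beside 1 pool of 237 proliferative cells and 1 pool of 369 cultured cells. The pools have no replicate, and the proliferative cells are all ascribed to 1 animal. The 7 epithelial markers of 4T1 cells summed to 2808 CPM (counts per M reads) or more in every TC library and to at most 36.2 CPM in every EC library, and the 7 EC markers summed to 8946 CPM or more in ECs and at most 50.7 CPM in TCs. In EC libraries the 5 lung epithelium markers summed to 648 to 1176 CPM and the 4 lymphatic markers to 348 to 1276 CPM. Their part in the EC levels was not tested.

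Short sequence stretches are shown because the Tcf/Lef factors among the genes bind DNA at a core of the letters CTTTGA or CTTTGT. Windows from 250 bases before to 50 bases after a transcription start were read from RefSeq (GRCm38.p6), and 14 windows were found for 7 of the genes, while Lgr5, Znrf3 and Notum were not matched. Either core, on either strand, occurred in 2 of these 14 windows and in 31.2% of all 32851 windows of that length. The 2 cores share their first letters and cannot overlap on the same strand. Windows of Axin2, Nkd1, Tcf7, Rnf43 and Ctnnb1 held neither set of letters, which says nothing of sites elsewhere. The matches lay in windows of starts inside the Lef1 and Tcf7l2 genes, and are printed along the gene strand (plus in both) with the core, or its reverse complement, in capitals.
Lef1, chr3:131156102-131156131: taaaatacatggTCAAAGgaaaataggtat
Lef1, chr3:131156136-131156165: caacctcagaatACAAAGtaggattgcatt
Lef1, chr3:131156162-131156191: cattgtctgttcTCAAAGtcaggtcttgca
Tcf7l2, chr19:55895295-55895320: caaaatatcaggCTTTGTtcttttga

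The 2 cell types differed in which feedback genes were read. Nkd1, whose product binds Dishevelled and damps the signal inside the cell, and Axin2, a scaffold of the β-catenin destruction complex and the most widely used target gene, were read in ECs and almost absent from TCs. Notum, a secreted enzyme that removes the lipid from Wnt ligands, was read in TCs and almost absent from ECs. Rnf43, a ubiquitin ligase that takes Frizzled receptors off the surface, was almost absent from ECs and low in TCs. There it was at most at 1.45 CPM and read in 4.15% of cells. Znrf3, the paralogue of Rnf43, was read in both. TCs and ECs differed in the number of cDNA amplification cycles and in detected genes, with medians of 5721 to 7145 genes per cell in TCs and 1951 to 2974 in ECs, so the levels are set side by side and were not tested.

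Nkd1 (chromosome 8, 88521354 to 88594884, GRCm38) lay between 79.8 and 162 CPM in all 10 EC libraries, and 1203 of 2479 ECs (48.5%) held a read. In all 14 TC libraries it lay between 0 and 2.91 CPM, with reads in 22 of 1566 cells (1.4%). In the 6 lungs that gave both cell types, ECs thus stood far above the TCs that had been sorted from the same tissue. In ECs of animals m5, m6 and m7 Nkd1 was at 115, 79.8 and 135 CPM, and in their extravascular TCs at 0, 0.0208 and 0 CPM. In ECs of animals m9, m10 and m11 it was at 92.4, 117 and 126 CPM, and in their latent TCs at 0.533, 0.0222 and 0.0573 CPM. Per kb of annotated exon, Nkd1 had the highest mean of the 10 genes in ECs on day 0, at 29.3 ± 5.62 CPM per kb (SD, n = 4), next to Ctnnb1 at 26.4 ± 11.6, a gap well inside their spread. On day 3.5 the order of these 2 was the other way round, at 37.6 ± 8.22 for Ctnnb1 and 24.6 ± 3.86 for Nkd1 (n = 3 each).

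Axin2 (chromosome 11, 108920349 to 108950783) was between 2.83 and 22.2 CPM in ECs, where 136 of 2479 cells (5.49%) held its reads. It rested on few cells: the single cell with the most reads held between 22.9% and 77.3% of an EC library's Axin2 reads. In TCs it was read in 5 of 1566 cells. There was no Axin2 read in the 369 cultured, 325 intravascular and 306 extravascular cells, which allows shares of cells with a read of up to 0.813%, 0.923% and 0.980% (3 cells of the total, counting error only, as for all intervals here). The gene Gm11670 overlaps its exons on the other strand, and the libraries do not mark strand.

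Notum (chromosome 11, 120653788 to 120661175, minus strand) was read in 241 of 1566 TCs and in 1 of 2479 ECs. Rnf43 (chromosome 11, 87662722 to 87735539) was read in 65 TCs and in 2 ECs, and stayed at or below 1.45 CPM in every TC library. Znrf3 (chromosome 11, 5276324 to 5444847, minus strand) was between 19.6 and 63.8 CPM in TCs and between 23.9 and 145 CPM in ECs. Its reads were spread over 63.1% of TCs, and over 32.7% of ECs, where the leading cell of a library held 14.8% to 59.6% of them. Notum likewise overlaps Notumos and Myadml2os, whose reads cannot be told apart from its own. Lef1, Tcf7 and Ctnnb1 overlap other genes too.

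**Figure D1:**
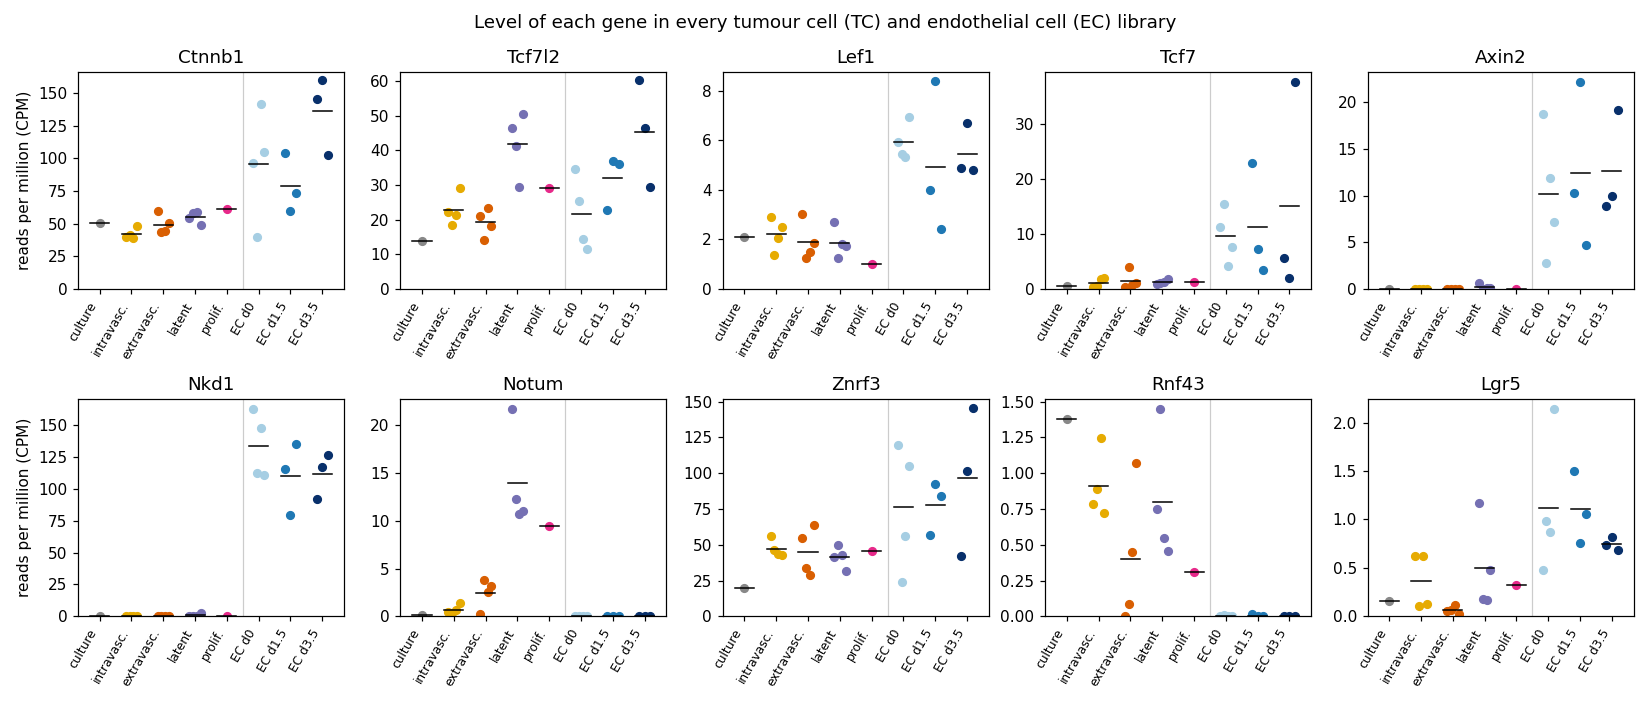
Level of each of the 10 genes in CPM (counts per M reads, linear axes that differ between panels and start at 0), by group. Points are libraries of 1 animal (culture and proliferative are pools), horizontal lines are means, and the vertical line divides TC from EC groups. Nkd1 sits at 79.8 to 162 CPM in ECs and at most 2.91 CPM in TCs, and Notum at 10.8 to 21.7 CPM in latent TCs.

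Among the nuclear factors, Tcf7l2 led in TCs. It was between 13.7 and 50.5 CPM there, against 1.02 to 3.01 CPM for Lef1 and 0.326 to 4.01 CPM for Tcf7, and per kb the order in latent TCs was Tcf7l2 at 9.48 ± 2.07 CPM per kb, then Lef1 at 0.534 and Tcf7 at 0.474. The last 2 did not differ beyond their spread in any replicated TC group. In ECs Lef1 (chromosome 3, 131110471 to 131224356) was read in 19.4% of cells at 2.40 to 8.39 CPM, and Tcf7 (chromosome 11, 52252371 to 52283014, minus strand) in 5.24% of cells at 1.99 to 37.7 CPM. Lef1 and Tcf7 are also known from T cells. The 8 T cell markers summed to at most 13.4 CPM in any EC library, and the 485 ECs (19.6%) with a read of Ptprc, Cd3d, Cd3e, Cd3g or Cd28 held 26.5% of the Tcf7 and 31.0% of the Lef1 reads. They held like shares of the other genes, with 25.3% for Nkd1, 30.2% for Axin2, 31.9% for Znrf3 and 33.0% for Ctnnb1. Ctnnb1 (chromosome 9, 120929216 to 120960507) was the most abundant of the 10 per kb in each TC group, at 11.6 ± 1.20 to 15.2 ± 1.25 CPM per kb in the 3 replicated ones, and was read in 80.8% of TCs.

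The comparison of extravascular with intravascular TCs asked what accompanies the exit from the vessel. Axin2 had no read in either group and could not pass. None of the 10 genes passed the test (edgeR quasi-likelihood, Benjamini-Hochberg adjusted p under 0.05), against 0.951% of all 19249 genes tested (0.416% higher and 0.535% lower). That background of 183 genes was unstable, and ranged from 8 (without intravascular m8 or extravascular m8) to 518 (without extravascular m5) when 1 library was left out. By unadjusted p under 0.05 there were 2, Lgr5 and Notum, where 17.6% of all genes fell under that limit, and DESeq2 called 0. Lgr5 (chromosome 10, 115450311 to 115587780, minus strand), a receptor for R-spondins that marks stem cells in several epithelia, was at 0.63, 0.102, 0.621 and 0.128 CPM in intravascular TCs of animals m5 to m8 and at 0.0547, 0.0638, 0.121 and 0.0248 CPM in their extravascular TCs. It was lower outside the vessel in 4 of 4 animals, the ranges of the 2 groups overlap, and the extravascular libraries held 1.1 to 4 reads each. Its log2 fold change was -2.56 ± 0.92 (SE; edgeR adjusted p = 0.186). Notum was at 0.463, 0.306, 0.634 and 1.44 CPM in intravascular and 0.244, 3.83, 2.53 and 3.22 CPM in extravascular TCs of the same animals. It was higher outside the vessel in 3 of the 4 animals, with a log2 fold change of 1.71 ± 0.66 (edgeR adjusted p = 0.206). Without the extravascular library of m5, the lowest, it passed (2.09, adjusted p = 0.0378). Tcf7l2 had reads in 52.6% ± 3.28 of intravascular and 37.1% ± 5.62 of extravascular TCs once each cell was thinned to 100000 reads (SD, n = 4 each). These shares did not overlap between the groups, and how many of all genes did so was not counted. The levels of Tcf7l2 overlapped, and the fitted log2 fold change was -0.33 ± 0.21 (edgeR adjusted p = 0.458). On the deposited log10 values, which weigh each cell alike, limma called it lower outside the vessel (-0.93, adjusted p = 0.0219).

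The comparison of latent with extravascular TCs asked what separates cells that stay undivided on day 3.5 from those just outside the vessel on day 1.5. Time, gate, lane and animals all change between the 2 groups. Of the 10 genes, 3 were called, all of them higher in latent TCs (Notum, Tcf7l2 and Nkd1), against 3.60% of all genes called higher, 4.97% called lower and 8.57% called in either direction. Nkd1 and Axin2 held at most 2 reads over the 4 extravascular libraries and entered the test through the latent ones, so the count and the median are no evidence of a shift of the set. The median log2 fold change was 0.92 over the 10, 0.43 over the 8 without these and 0.02 over the 7 that could also be tested within day 1.5 alone, beside 0.03 over all genes tested.

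Notum was at 21.7, 12.3, 10.8 and 11 CPM in latent TCs of animals m9 to m12, and at most 3.83 CPM in the 8 libraries of day 1.5. The 4 latent libraries did not overlap with either group of day 1.5, and the share of all genes of which this held was not counted. The difference from extravascular TCs was a log2 fold change of 2.36 ± 0.65, that is 5.12-fold (edgeR adjusted p = 0.0413). More cells held a read. Between 33.8% and 36.5% of latent cells held Notum reads, against 2.67% to 16.2% of extravascular and 3.8% to 9.52% of intravascular cells, and 5 of 369 cultured cells (1.36%, 95% exact binomial interval 0.441 to 3.13). With each cell thinned to 100000 reads, the shares were 25.3% ± 2.28 in latent, 7.71% ± 4.73 in extravascular and 2.58% ± 2.31 in intravascular TCs (SD, n = 4 each). Among cells with a Notum read, the median level per library was 9.83 to 24.0 CPM in latent and 9.33 to 25.2 CPM in extravascular TCs, which overlap. In intravascular TCs it was 4.64 to 7.07 CPM, below every latent library. Between extravascular and latent TCs the mean level went from 2.45 ± 1.57 to 13.9 ± 5.21 CPM. The call was lost (adjusted p 0.0613 to 0.111) without any 1 of the 4 latent libraries or without extravascular m7 or m8, while the log2 fold change stayed between 2.05 and 2.50 there.

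The proliferative pool of day 3.5 held a similar amount of Notum, at 9.43 CPM, with reads in 69 of 237 cells (29.1%, 95% exact binomial interval 23.4 to 35.3). Notum was therefore high on day 3.5 on both sides of the dye gate. The 7 markers of other immune cells summed to 227 CPM in the latent library of m9 and 132 CPM in that of m12, and to 3.37 and 3.96 CPM in the other two, where Notum was at 10.8 and 12.3 CPM. The library of m9 was highest for both Notum and these markers, and the part of the markers in the level of m9 was not tested.

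Tcf7l2 (chromosome 19, 55741820 to 55933654) was at 46.6, 41.3, 29.5 and 50.5 CPM in latent TCs of m9 to m12, against 21, 14.2, 23.5 and 18.2 CPM in extravascular and 22.2, 18.4, 21.4 and 29.3 CPM in intravascular TCs of m5 to m8. Every latent library was above every library of day 1.5, and how many of all genes separated in this way was not counted. The highest were m12 and m9, which also had the most reads of other immune markers (132 and 227 CPM) and EC markers, whose part in Tcf7l2 was not tested, while m10 and m11, with few such reads, were at 41.3 and 29.5 CPM. The log2 fold change against extravascular TCs was 1.00 ± 0.22, a 2.00-fold difference (edgeR adjusted p = 0.0110). Cells with a read made up 68.8% to 76.2% of latent and 46.7% to 60% of extravascular TCs, and 65.1% ± 6.81 against 37.1% ± 5.62 after thinning (SD, n = 4 each). The proliferative pool was at 29.2 CPM, with 62.8% of thinned cells. Tcf7l2 was not called when the thinned counts were fitted (log2 fold change 0.69, adjusted p = 0.0717).

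Nkd1 rested on a handful of tumour cells. It was at 0.533, 0.0222, 0.0573 and 2.91 CPM in latent TCs, with reads in 1.2% to 3.75% of cells, and at 0, 0.0208, 0 and 0.0224 CPM in extravascular TCs. The groups overlap, and 1 cell held 83.6% of the reads in the highest library, that of m12. Summed over animals there were 142 reads against 2, a ratio of 75.3 per read sequenced (95% exact interval 20.5 to 628). The fitted log2 fold change of 5.88 ± 1.66 (edgeR adjusted p = 0.0452) depends on counts near 0 and fell to 3.74 without m12 (adjusted p = 0.200). Leaving out m9 or any 1 extravascular library also ended the call, with log2 fold changes of 5.55 to 6.30 that were as large as in the full fit. So did removing the top cell of each gene (6.24, adjusted p = 0.0558), thinning (5.94, adjusted p = 0.0908) and leaving out cells of high mitochondrial share (5.60, adjusted p = 0.0613). The libraries of m12 and m9, the highest for Nkd1, also had the highest sums of the 7 EC markers among TC libraries (50.7 and 42 CPM, against 24.1 and 29.6 CPM in m10 and m11) and of the 7 other immune markers (132 and 227 CPM, against 3.96 and 3.37 CPM). In m12, 6 of the 7 EC markers were above 1 CPM, against 3 to 4 in the other latent libraries. Their part in the Nkd1 reads was not tested. Axin2 gave 26 reads in 4 latent TCs, mostly in 1 cell of m9, and was not called (adjusted p = 0.156). Nkd1 and Axin2 were thus below 3 CPM in TCs at every stage.

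The remaining genes did not pass in latent against extravascular TCs. Ctnnb1 was at 48.8 to 58.9 CPM in latent and 43.3 to 59.4 CPM in extravascular TCs, with a log2 fold change of 0.02 ± 0.13 (edgeR adjusted p = 0.960). Znrf3 was at 31.7 to 49.6 and 28.9 to 63.8 CPM, with a log2 fold change of -0.27 ± 0.23 (adjusted p = 0.517). In culture, Znrf3 was at 19.6 CPM, below all 13 TC libraries from lungs. Lef1 (-0.16 ± 0.40) and Tcf7 (-0.46 ± 0.74) had log2 fold changes smaller than their errors, and Rnf43 (0.84 ± 0.93) and Lgr5 (2.79 ± 0.93, adjusted p = 0.0878) stood below 1.5 CPM in all TC libraries.

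**Figure D2:**
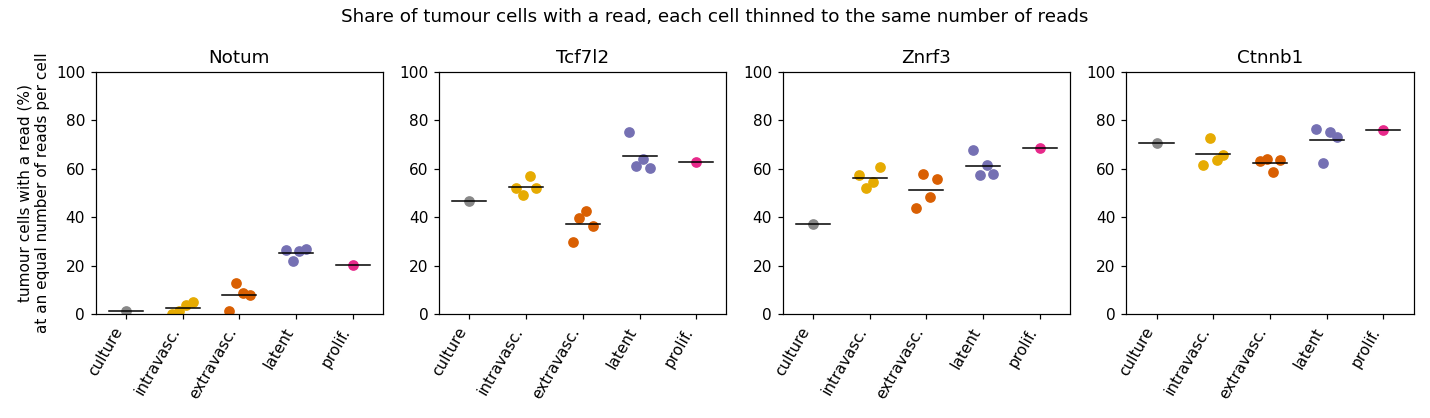
Percentage of tumour cells with a read of Notum, Tcf7l2, Znrf3 and Ctnnb1 after each cell was thinned to 100000 reads, by group (linear axes from 0 to 100%). Points are animals (culture and proliferative are pools) and lines are means. For Notum the latent animals average 25.3% and the extravascular animals 7.71%, and for Tcf7l2 65.1% and 37.1%.

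For latent and proliferative TCs, the 2 states of day 3.5, the single proliferative pool leaves little to be read from the test. None of the 10 genes was called by edgeR or DESeq2 and none had an unadjusted p under 0.05 by edgeR, but no gene of the 19249 was called by edgeR, whereas 5.08% passed the limit without adjustment, and by DESeq2 there were 89 calls. The pool was assumed to vary like the other groups, and the absence of a call does not show that the 2 states were alike. The log2 differences were 0.55 ± 1.01 for Notum, 0.52 ± 0.35 for Tcf7l2 and -0.17 ± 0.20 for Ctnnb1 (latent over proliferative), with the widest error for Notum.

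Other genes of the pathway were taken from 3 lists that hold none of the 10, and their counts stand beside the same 3.60% of all genes called higher and 4.97% called lower in latent against extravascular TCs. Of 29 transducers, all tested in TCs, 1 was called in latent against extravascular TCs: Csnk1e, a kinase that acts on Dishevelled, rose from 13.4 to 17.6 CPM to 24.1 to 43.4 CPM (log2 fold change 1.10 ± 0.21, edgeR adjusted p = 0.00461). In culture Csnk1e was at 35.6 CPM and in the proliferative pool at 19.1 CPM. The median over the list was 0.32. Of 20 tested of 24 further targets, 4 rose and 1 fell. Sox9, a transcription factor of progenitor cells, was at 14 to 28 CPM in extravascular and 47 to 70.2 CPM in latent TCs (1.27 ± 0.22, adjusted p = 0.00234). Id2, an inhibitor of differentiation factors, went from 34.6 to 53.1 CPM up to 77.5 to 99 CPM (1.01 ± 0.16, adjusted p = 0.00185). Jun and Myc rose by 0.89 ± 0.17 and 0.77 ± 0.14 (adjusted p 0.00545 and 0.00329), and the nuclear receptor gene Ppard fell by 1.11 on the log2 scale (SE 0.31, adjusted p = 0.0415). In the proliferative pool Jun, Myc, Id2 and Sox9 were at 222, 110.1, 84.4 and 43.5 CPM, and in culture Myc was at 162 CPM. Myc was also the only gene of these lists called in extravascular against intravascular TCs (0.75 ± 0.14, adjusted p = 0.0314). Of 12 tested of 16 endothelial targets, Foxq1, a forkhead factor, was called, at 0.0223 to 0.121 CPM in extravascular and 0.549 to 1.94 CPM in latent TCs (adjusted p = 0.0494), with 1.47 CPM in the proliferative pool. In intravascular TCs it was at most 0.153 CPM. Foxq1 thus entered the test through the groups of day 3.5, so its call is no evidence of a shift of the list. Latent and proliferative TCs gave no call in these lists, as in all genes, and the smallest unadjusted p in each list was that of Csnk1e, Ccnd1 and Pdgfb (0.0225, 0.0192 and 0.149). In extravascular against intravascular TCs the smallest of the transducers was Tle5 and that of the endothelial targets Slc2a1 (adjusted p 0.152 and 0.146).

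In ECs, the question was whether the arrival of TCs changes the readout genes of the vessel wall. Of the 10 genes, 8 were tested, since Notum and Rnf43 did not pass the filter on low counts, and none was called on day 1.5 or 3.5 against day 0 or between those days. No gene at all was called among the 17585 tested in these 3 comparisons by edgeR (8.09%, 8.76% and 4.54% had an unadjusted p under 0.05), so that 0 of 8 is what the background gives. DESeq2 called 360, 475 and 124 genes, none of them among the 8. None of the 8 had an unadjusted p under 0.05 by edgeR, and by DESeq2 Tcf7l2 had one on day 3.5 against day 0 (p = 0.0279, adjusted p = 0.290).

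Nkd1 was at 162, 113, 148 and 111 CPM on day 0, at 115, 79.8 and 135 CPM on day 1.5 and at 92.4, 117 and 126 CPM on day 3.5. The days overlap, with log2 fold changes of -0.34 ± 0.26 and -0.32 ± 0.26 against day 0. Axin2 was at 18.7, 2.83, 11.9 and 7.17 CPM on day 0, at 10.3, 22.2 and 4.76 CPM on day 1.5 and at 8.95, 9.92 and 19.2 CPM on day 3.5 (0.25 ± 0.76 and 0.26 ± 0.76). The days overlapped for both readouts, and the error for Axin2 was the wider.

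Tcf7l2 had the largest fitted difference of the 8 from day 0, while Ctnnb1 had that between days 1.5 and 3.5 (0.77 ± 0.43, edgeR adjusted p of 1). Once sort day was a covariate, the log2 fold change of Ctnnb1 between these days was -0.095 ± 0.61. Tcf7l2 was at 34.6, 25.4, 14.5 and 11.6 CPM on day 0, at 22.7, 37.0 and 36.1 CPM on day 1.5 and at 60.3, 46.6 and 29.4 CPM on day 3.5, with a log2 fold change of 1.02 ± 0.47 for day 3.5 over day 0 (edgeR p = 0.0548, adjusted p = 0.579). The day 0 animals had been sorted on 2 days, m1 and m2 with the animals of day 1.5 and m3 and m4 with those of day 3.5, and the former had the higher CPM. Within the later sort day, the 3 animals of day 3.5 were all above m3 and m4 (1.76 ± 0.56, edgeR p = 0.0183, adjusted p = 0.642). Within the earlier one, day 1.5 and day 0 gave 0.04 ± 0.52. With sort day as a covariate, the log2 fold change of Tcf7l2 on day 3.5 was 1.73 ± 0.51 against day 0 (edgeR p = 0.00749, adjusted p = 0.612) and 1.70 against day 1.5 (p = 0.0340, adjusted p = 0.754). After thinning, 16.0% ± 2.31 of ECs held a Tcf7l2 read on day 3.5 (n = 3), 10.3% ± 1.76 on day 1.5 (n = 3) and 9.48% ± 2.85 on day 0 (n = 4).

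Ctnnb1 and Znrf3 followed a like order in shares but not in test results. Thinned shares for Ctnnb1 were 15.3% ± 4.51, 19.4% ± 4.72 and 26.9% ± 4.00 on days 0, 1.5 and 3.5, and for Znrf3 13.6% ± 5.46, 21.3% ± 4.80 and 25.0% ± 2.92. On day 3.5 every animal was above every animal of day 0 in both, and the share of all genes that separated in this way was not counted. The levels overlapped: Ctnnb1 was at 96.6, 39.6, 141 and 105 CPM on day 0 and at 146, 160.3 and 103 CPM on day 3.5 (0.45 ± 0.40), and Znrf3 at 119.8, 23.9, 56.2 and 105 CPM and at 42.2, 102 and 145 CPM (0.27 ± 0.55). The number of detected genes per cell moved with these shares, with medians of 1951 to 2515 on day 0 and 2313 to 2974 on day 3.5, and its part in them was not tested. Within the later sort day Ctnnb1 differed by 0.11 ± 0.33. For Lef1, Tcf7 and Lgr5 the log2 fold changes against day 0 lay between -0.66 and 0.58, each within 1 SE of 0. Once sort day was a covariate, those of day 3.5 were -0.24 ± 0.81 for Lef1, 1.26 ± 1.27 for Tcf7 and -1.10 ± 0.88 for Lgr5.

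The other lists had no call in ECs either. The smallest unadjusted p in each list was that of Gsk3a (0.0243 to 0.384 CPM on day 0, 4.39 to 9.74 CPM on day 1.5), Birc5 (0.741 to 4.65 and 5.06 to 36.7 CPM) and Sox7 (282 to 496 and 124 to 299 CPM) on day 1.5, with adjusted p of 0.407, 0.473 and 0.573. Gsk3a is a kinase of the destruction complex, Birc5 a mitotic survivin gene and Sox7 an endothelial transcription factor. On day 3.5 they were Gsk3a, Birc5 and Slc2a1 (adjusted p 0.405, 0.405 and 0.49), and between days 1.5 and 3.5 Apc, Fzd7 and Slc2a1 (adjusted p of 1 each).

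**Figure D3:**
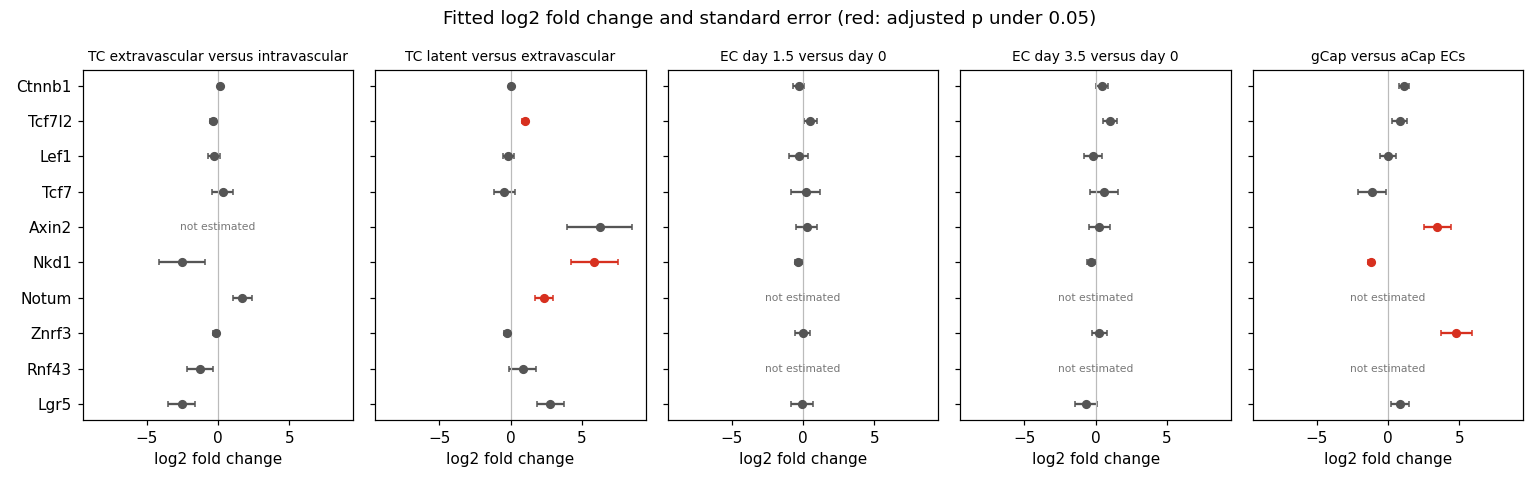
Fitted log2 fold change (x axis) of each of the 10 genes in 5 comparisons, with error bars of 1 standard error. Red points passed an adjusted p of 0.05 in edgeR, and "not estimated" stands for genes without enough counts in that fit. Calls are present for latent over extravascular TCs (Tcf7l2, Nkd1 and Notum) and for gCap over aCap ECs (Axin2, Nkd1 and Znrf3), and absent for the EC days.

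A larger contrast lay between capillary cell types. Lung capillaries hold general capillary cells (gCap) and aerocytes (aCap), thin cells specialised for gas exchange. ECs were divided by the study's marker lists and score limits, which contain none of the 10 genes, into 1580 gCap and 602 aCap cells, beside 133 large-vessel, 24 cycling and 140 unclassified cells. Both classes came from all 10 animals, with 120 to 203 gCap and 34 to 88 aCap cells each. The classes are ranges of a score: 333 gCap and 88 aCap cells lay within 0.1 of a score limit. Median scores on the aCap list were 0.84 in the aCap class and -0.33 in the gCap class. Of the 8 genes tested 3 were called, 2 higher in gCap (Axin2 and Znrf3) and 1 lower (Nkd1), against 8.88% of 13429 genes called, 4.55% higher and 4.33% lower. By unadjusted p under 0.05 there were 4 (the fourth was Ctnnb1), where 20.6% of all genes fell under that limit.

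Nkd1 and Axin2, both feedback targets, went in opposite directions. Nkd1 had its lowest, median and highest level at 85.7, 192 and 239 CPM in aCap and at 64.2, 102 and 157 CPM in gCap. It was lower in gCap in 10 of 10 animals, as were 1.68% of all genes, with a log2 fold change of -1.17 ± 0.21 (edgeR adjusted p = 0.00195). Nkd1 reads were found in 74.8% of aCap and 41.0% of gCap cells, and after thinning in 70.8% ± 12.1 and 35.3% ± 8.23 (SD, n = 10), so that aerocytes carried it most widely. The call was kept under every alternative run, with log2 fold changes from -1.62 to -1.06.

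Axin2 had its lowest, median and highest level at 0, 0.726 and 3.03 CPM in aCap and at 3.27, 11.3 and 29.5 CPM in gCap. The 2 classes did not overlap, for which no share over all genes was counted. Axin2 was higher in gCap in 10 of 10 animals, as were 5.44% of all genes. The log2 fold change was 3.46 ± 0.95, or 11-fold (edgeR adjusted p = 0.0360). Fewer cells carried the difference than for Nkd1: 94 of 1580 gCap and 20 of 602 aCap cells held a read, and the thinned shares were 4.59% ± 1.62 and 2.46% ± 1.2. The call was lost when thinned counts were fitted (2.80, adjusted p = 0.0697) and without the filter on low counts (3.49, adjusted p = 0.0561), and without any 1 of m1, m2, m3, m5, m6, m9 or m11 (adjusted p 0.0605 to 0.0763, log2 fold change 3.08 to 3.57).

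Znrf3 was at 0.462 to 6.48 CPM in 8 of the 10 aCap libraries and at 82.2 and 229.9 CPM in those of m5 and m6, while gCap libraries were at 38.5 to 205 CPM. In the aCap libraries of m5 and m6, 1 cell held 70.0% and 83.8% of the Znrf3 reads, and their thinned shares of cells (17.1% and 20.3%) were below that of m9 (22.6%). It was higher in gCap in 8 of 10 animals in CPM and in 10 of 10 in thinned shares, at 22.0% ± 7.41 against 11.4% ± 6.76. The fitted log2 fold change of 4.79 ± 1.10 (edgeR adjusted p = 0.0125) took animals as blocks. Without the block it was 1.39 (adjusted p = 0.445). The mean levels were 111 CPM in gCap and 33.0 CPM in aCap. Ctnnb1 was also higher in gCap in 10 of 10 animals, at 50.9 to 190.3 CPM against 7.38 to 152 CPM, but did not pass (1.11 ± 0.35, adjusted p = 0.0730). It was called by DESeq2 (1.06, adjusted p = 0.0159), with the top cell of each gene removed (1.23, adjusted p = 0.0335) and with thinned cells (1.25, adjusted p = 0.0449).

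The other four were not called. Lef1 was read in 13.9% ± 4.27 of thinned gCap and 14% ± 6.08 of thinned aCap cells (log2 fold change 0.00 ± 0.54). Tcf7 was at 0.949 to 44.9 CPM in gCap and 0.0474 to 86.4 CPM in aCap (-1.12 ± 0.97), and its thinned share was 2.57% ± 1.41 in gCap and 6.12% ± 2.81 in aCap, higher in gCap in 1 of 10 animals. Tcf7l2 (0.80 ± 0.53) and Lgr5 (0.82 ± 0.64) were higher in gCap in 7 and 8 of 10 animals.

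**Figure D4:**
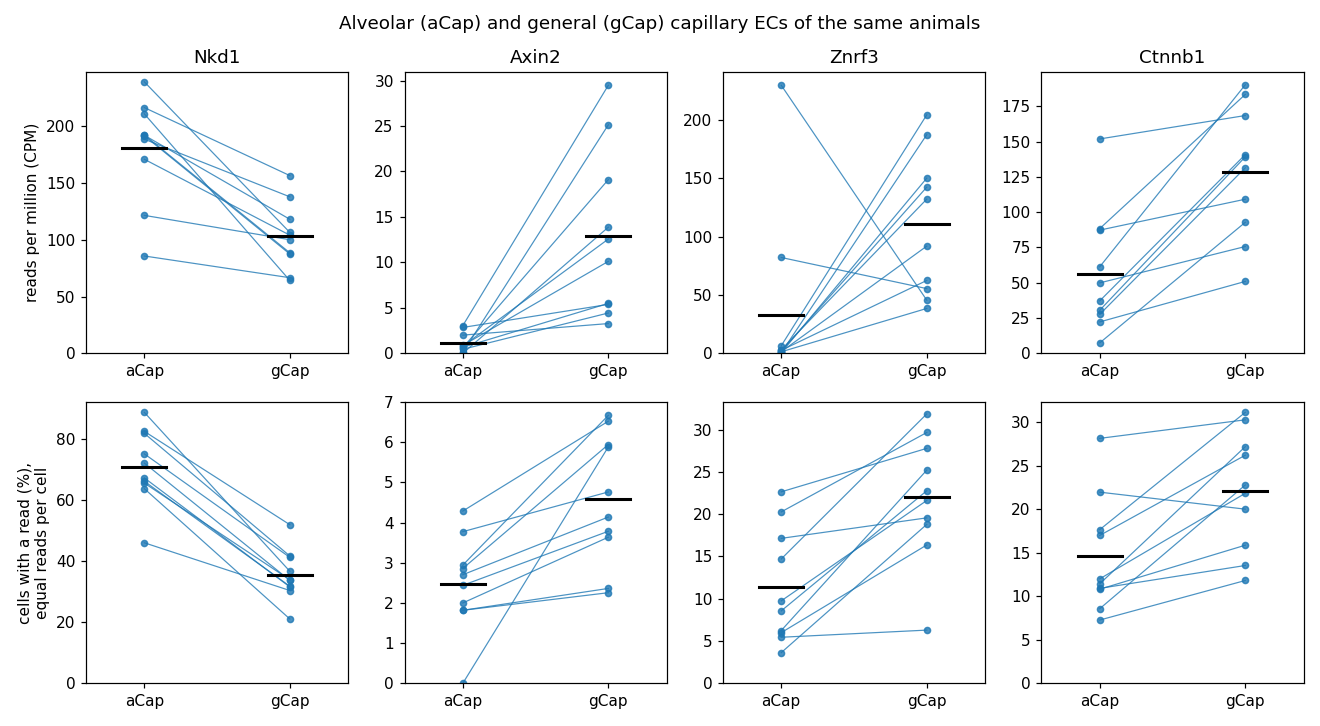
Nkd1, Axin2, Znrf3 and Ctnnb1 in aCap and gCap ECs. The top row gives CPM and the bottom row the percentage of cells with a read after thinning to 100000 reads per cell (linear axes from 0, differing between panels). Each line joins the 2 classes of 1 animal (n = 10) and black bars are means. Nkd1 falls from aCap to gCap in 10 of 10 animals and Axin2 rises in 10 of 10.

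Further targets also split the capillary classes in both directions. Birc5 and Plvap are among the genes that set the classes and were left out here. Of the 14 other further targets tested, 3 were higher and 2 lower in gCap (median log2 fold change 0.02), and of 7 endothelial targets 3 were higher and 2 lower (median 0.26), beside a median of 0.25 over all genes and the 4.55% called higher and 4.33% called lower. Higher in gCap were the secreted Wnt inhibitor Wif1 (1.99 to 35.3 CPM, at most 0.124 in aCap), Nkd2, the paralogue of Nkd1 (median 28.2 against 0.152 CPM), and Id2 (161 to 612 against 9.57 to 96.6 CPM), with adjusted p of 0.000327, 0.00482 and 6.79e-05. Nkd2 thus ran opposite to Nkd1 in level. Wif1 and Nkd2, with aCap medians of 0 and 0.152 CPM, entered the test through gCap and could only be called higher there. The count of further targets called is therefore no evidence of a shift of the list. Lower in gCap were the transcription factor gene Tbx3 (53.2 to 188 against 408 to 834 CPM, adjusted p = 1.40e-06) and the pseudokinase gene Trib2 (adjusted p = 0.0125). The endothelial targets higher in gCap were Sox17, Sox7 and the drug transporter Abcb1a. Lower were the tight junction gene Cldn5 and the growth factor Pdgfb. Among 28 transducers Tcf7l1, a repressor of the same family, was higher (median 7.09 against 0.0455 CPM, adjusted p = 0.0168), and the kinase Tnik lower (median 7.53 against 33.6 CPM, adjusted p = 0.0148). Tcf7l1 also entered the test through gCap.

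Co-detection in single ECs was counted for cells with and without Nkd1 or Axin2, over all classes together, so that these shares also carry the make-up of the classes. In thinned ECs, Axin2 was read in 4.20% of the 929 cells with Nkd1 and in 4.43% of the 1218 without, and Znrf3 in 18.7% and 20.0%. Tcf7 was read in 4.84% of cells with and 2.63% without Nkd1, higher in 9 of 10 animals, and Lef1 in 15.2% and 12%, also in 9 of 10. Ctnnb1 was read in 31.2% of the 93 cells with Axin2 and 19.4% of the others, higher in 7 of 10 animals.

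As a description, the genes whose log2(CPM + 1) ran closest to each gene across libraries were named by the 3 highest Pearson correlations, with no test and among genes of at least 5 CPM on average. Over the 12 replicated TC libraries, which share gates and depth, they were Cstf1, Dagla and Necap2 for Notum (r 0.951 to 0.959), Scp2-ps2, Rpusd1 and Aplp2 for Tcf7l2 (0.925 to 0.945), Atad2, Pcgf6 and Gm4204 for Znrf3 (0.799 to 0.874), and Ubac1, Cars and Olfr1217 for Ctnnb1 (0.904 to 0.943). Over the 10 EC libraries they were Gm7336, Plcg1 and Gstm2 for Nkd1 (0.919 to 0.932), Ammecr1l, Vmn2r23 and Hsd17b4 for Axin2 (0.920 to 0.941), Aco1, Bbs9 and Mavs for Znrf3 (0.898 to 0.911), Eif2b4, Timm50 and 1500009L16Rik for Ctnnb1 (0.902 to 0.961), Hdac7, Tyr and H3f3b for Lef1 (0.895 to 0.924), Atp2a2, Tbcc and Katnbl1 for Tcf7 (0.85 to 0.907), and Acyp1, Runx1t1 and Gm30531 for Tcf7l2 (0.911 to 0.919). None of the 10 genes was among the closest of another.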

How the data were processed

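The authors deposited estimated counts per gene and cell (salmon 0.7.2 on GRCm38, per the submitters' notes and methods, with tximport), which need not be whole, and filtered tables on a log10 scale. The deposited annotation gave time point, gate and animal. Counts of the kept cells were summed per animal and group and rounded. Tests used edgeR 4.0.16 (TMM, filterByExpr, quasi-likelihood, Benjamini-Hochberg over all genes tested): 13 TC libraries in 1 fit, 10 EC libraries in 1 fit, and gCap and aCap libraries with animal as a block. SE is the log2 fold change divided by the root of F. Classes came from Seurat 5.3.0 module scores. DESeq2 1.42.0, limma 3.58.1, other scalings, filters and cell sets, and leaving out each library were alternatives. Thinning to 100000 reads left out shallower cells and kept 2147 of 2479 ECs and 68 to 82 TCs in each of the 12 libraries of 1 animal and gate, and 234 of the 237 proliferative cells. Scripts were tested on simulated counts. The members and lists were chosen with earlier results of these data known. Named were the 10 genes, genes of the other lists called in a contrast (or of smallest p), and nearest patterns. Gene positions are from GENCODE M21, whose release may not be that of the authors. p-values measure the spread between libraries, and for gCap against aCap the spread between animals of the difference within an animal. The fit of the TC groups did not use the pairing of intravascular and extravascular libraries. Low depth per gene limits Axin2, Rnf43, Lgr5 and, in TCs, Nkd1. A filtered capillary table was not used here. For extravascular and intravascular TCs the pairing comes from the animal named in the annotation.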

Additional observations from a re-analysis of the deposited data

Results flagged for a closer look

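Within groups of 4 or 10 libraries, 10 of 56 sets of levels held a library far from the rest (gap over range above Dixon's 95% value), where chance flags about 1 in 20. In latent TCs, m9 was high for Notum, at 21.7 CPM with the next at 12.3, and for Axin2, at 0.627 CPM with the next at 0.0860, all of it from 1 cell. In aCap libraries, m6 was high for Znrf3 (229.9 CPM, 83.8% of it from 1 cell, next 82.2), m5 for Tcf7 (86.4 CPM, next 25.4) and m4 for Lgr5 (3.36 CPM, next 0.930). In gCap libraries, m11 was high for Tcf7 (44.9 CPM, next 17.2). The remaining flags are single reads or cells against libraries at 0: Rnf43 in m2 on day 0 (0.0104 CPM) and in aCap of m2 (0.0340 CPM), and Notum in m4 on day 0 (0.0486 CPM) and in gCap of m4 (0.0696 CPM).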

How the results depend on the processing

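No called value changed sign under any alternative run. For latent against extravascular TCs, 3 of the genes were called, 1 with thinned cells, 2 with the top cell of each gene removed or cells of high mitochondrial share left out, and 1 to 2 when a library was left out. For gCap against aCap, 3 were called, 4 by DESeq2 and with the top cell removed, 2 without a low-count filter or without the animal block, and 2 to 3 when an animal was left out. For extravascular against intravascular TCs, 0 were called, 1 by limma on the deposited log10 values (Tcf7l2), and 0 to 1 when a library was left out. The causes were not tested. Calls over all genes moved more: 183, 1650 and 1193 genes in extravascular against intravascular, latent against extravascular and gCap against aCap became 1308, 2712 and 3080 by DESeq2, and the first 2 comparisons gave 1358 and 4895 by limma. The replicate block by animal, chosen after seeing the data, gave 0 calls for extravascular against intravascular TCs too among the 7 genes it could test, which left out Axin2, Nkd1 and Lgr5, and 34 of 14697 genes tested, beside 183 of 19249 in the fit of all TC groups, whose samples and filter also differ. No paired analysis was possible for the other TC contrasts and the EC days because the groups shared no animal, or only m12 in latent and proliferative TCs, and the columns carry no replicate number, so the 4 labelled proliferative replicates were not run. The gCap and aCap comparison was paired by animal throughout, except in the fit without the block. In latent against proliferative TCs and the 3 EC comparisons, 0 were called under each alternative, including sort day as a covariate, which was also added after seeing the data.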
